A study of Danio rerio with 4 samples.

Results

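A set of 780 regions of open chromatin was examined that were called strongly in both libraries of GFP-positive cells of the zebrafish embryo and weakly in exactly 1 of the 2 libraries of GFP-negative cells. The embryos carried the Tg(krt4:GFP) transgene and were at the 4-somite stage. Each library was made by ATAC-seq from 50000 sorted cells, and embryos came from 2 separate incrosses. The GFP-positive group held periderm cells (libraries 1 and 2) and the GFP-negative group held all the remaining cells of the same transgenic embryos (libraries 1 and 2), so both groups carry the transgene and were separated by the sort gate. The krt4 promoter that drives GFP decided which cells count as periderm, and the GFP-negative sort is a mixture of many cell types rather than 1 tissue.

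The members were selected on their measured values. Merging the 4 lists wherever peaks shared 1 bp or more gave 694637 regions, and each peak received the percentile of its fold enrichment within its own list. A member had a peak at percentile 60 or more in each GFP-positive list and a peak in 1 GFP-negative list alone, at a percentile under 40. These were 0.112% of all regions, and 1.19% of the 65506 regions that were at percentile 60 or more in both GFP-positive lists (called strong GFP-positive regions here). Leaving out a library also removed the condition of the rule on that list, so larger counts follow in part from the looser rule. The lists left gave 1349 regions without GFP-positive library 1 and 5041 without GFP-positive library 2. They gave 1871 without GFP-negative library 1 and 1651 without GFP-negative library 2. Because the rule used every one of these values, levels and differences of the members are given as a description, with no test. The regions were all read from the same 4 libraries, so they are not replicates of a condition.

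Periderm is the outermost layer of the embryo, a flat epithelium that forms early, is held together by tight junctions and covers the layers that become the epidermis. In ATAC-seq the Tn5 transposase cuts DNA where it is not wrapped around histones, and short fragments come from stretches free of nucleosomes, such as active enhancers and promoters and sites bound by insulator proteins. A peak in sorted periderm and a faint one in the remaining cells therefore describes how accessible a stretch of DNA was on average in each sort. In bulk sorted cells, fewer cells with an open site and less opening per cell cannot be told apart.

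Every fold value in a list was a whole multiple of 1 step, to within 0.001 steps, which is the form a peak caller gives that adds 1 to a pileup and divides by a constant background plus 1. Under this reading the fold gives the height of the peak at its summit in whole tags, where a tag is 1 read end extended by the caller. The step also gave the size of the library, which was 24915271 and 29455701 implied tags for GFP-positive libraries 1 and 2, against 42446899 and 37589490 for GFP-negative libraries 1 and 2. Heights are given as tags and, to set libraries of unequal size side by side, as scaled tags (tags per 1000000 implied tags), with exact Poisson 95% intervals that cover counting error only. A summit is the highest point of a peak, so these intervals do not cover its choice as a maximum.

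In tags, the rule asked for at least 12 in GFP-positive library 1 and at least 15 in GFP-positive library 2, against 10 or fewer in the GFP-negative library with the peak. The faintest peak called in a list had 5 and 6 tags in the GFP-positive lists and 6 tags in each GFP-negative list, so the weak calls of the members span only 5 heights. Just inside the GFP-positive limits stood 88 members with 12 tags in library 1 (percentile 65.0, 0.482 scaled tags) and 140 members with 15 tags in library 2 (percentile 61.6, 0.509 scaled tags). Just outside stood 78 regions with 11 tags in library 1 (percentile 59.8) and 165 regions with 14 tags in library 2 (percentile 57.6) that met all the other conditions. On the GFP-negative side, 199 members had 10 tags in library 1 (percentile 37.0) and 111 had 10 tags in library 2 (percentile 33.3), while 148 and 88 further regions had 11 tags (percentiles 48.3 and 43.9) and fell outside. A single tag thus separated members from regions that were almost the same in height.

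Most members stood well below the highest peaks of the GFP-positive lists. Their summit had 12 to 51 tags (median 18) in GFP-positive library 1 and 15 to 55 tags (median 18) in GFP-positive library 2, against 6 to 10 tags (median 9) in the GFP-negative library with the peak. In scaled tags this was 0.482 to 2.05 (median 0.722) and 0.509 to 1.87 (median 0.611) in the GFP-positive libraries, against 0.141 to 0.266 (median 0.213) in the GFP-negative one. The ranges do not overlap, which the rule brought about. The median percentiles of the members were 80.5 and 70.3 in the GFP-positive lists, and only 11 of the 780 were at percentile 90 or more in both.

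**Figure D1:**
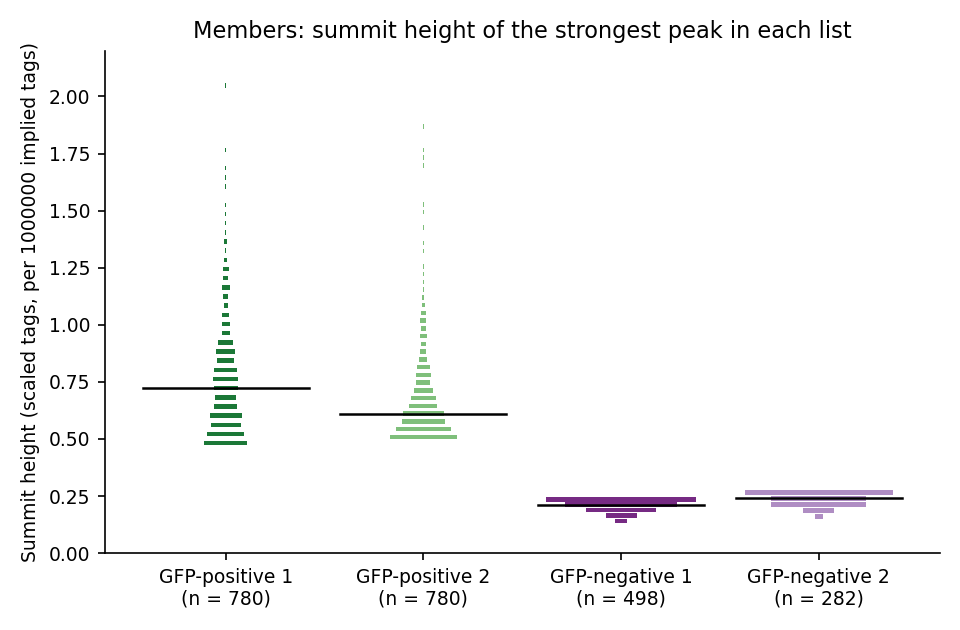
Summit height (scaled tags, per 1000000 implied tags, vertical axis) of the strongest peak of each member in the 4 lists, with 780 members in each GFP-positive list, 498 in GFP-negative list 1 and 282 in GFP-negative list 2. The length of each bar is the share of members at that height and the black line is the median, 0.722 and 0.611 in the GFP-positive lists, against 0.212 and 0.239 in the GFP-negative lists.

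The mean height of the 2 GFP-positive peaks was a median of 3.09 times that of the GFP-negative peak, with a range of 1.86 to 8.99 and quartiles of 2.59 and 3.72. Of the 780 members, 765 had a ratio of 2 or more, 417 a ratio of 3 or more and 60 a ratio of 5 or more. Read from each GFP-positive library alone, the median was 3.19 with library 1 and 2.88 with library 2. For 192 members (24.6%) the counting intervals of both GFP-positive summits lay entirely above that of the GFP-negative summit. For the other 588 members the interval of at least 1 GFP-positive summit overlapped that of the GFP-negative summit. The rule chose these heights, so both counts describe the members and are no test. An overlap of intervals also does not show that heights are equal.

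The strongest members are named next, ranked by the lower of their 2 GFP-positive percentiles, because they show how far apart the sorts could be while a GFP-negative call was still present. The first was chr4:857752-858026 (275 bp), with 51 tags in GFP-positive library 1 and 52 in library 2, or 2.05 (interval 1.52 to 2.69) and 1.77 (1.32 to 2.32) scaled tags. In GFP-negative library 1 it had 9 tags, 0.212 scaled tags (0.0970 to 0.402), and in GFP-negative library 2 no peak was called. Its ratio of 8.99 was the highest of all 780 members. The second was chr5:8009737-8009900 (164 bp), with 51 and 50 tags in the GFP-positive libraries, against 9 tags in GFP-negative library 1, a ratio of 8.83. Its GFP-negative peak was 53 bp wide, the smallest width in the lists, and ended at the edge of the region, with its centre 57.2 bp on average from the centres of the GFP-positive peaks.

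The 3 members named here are taken in order of ratio and, with the first 2, complete the 5 with the highest ratio. By lower GFP-positive percentile these 3 ranked 5, 7 and 4. The member chr6:50348832-50349258 had 34 and 55 tags in the GFP-positive libraries, against 8 tags in GFP-negative library 1, a ratio of 8.57. The member chr14:22188684-22188988 had 42 and 44 tags, against 7 tags in GFP-negative library 2, a ratio of 8.54. The member chr2:1907034-1907348 had 36 and 45 tags, against 7 tags in GFP-negative library 2, a ratio of 7.98. In all 5 the counting intervals of both GFP-positive summits lay above that of the GFP-negative summit. They were picked for the highest ratios, so this separation follows largely from the choice. The GFP-negative peak was in library 1 for 3 of them and in library 2 for the other 2.

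The remaining 5 of the 10 strongest were less far apart, with ratios of 5.28 to 6.69. The member chr13:8204813-8204991 had 44 and 50 tags in the GFP-positive libraries, against 10 tags in GFP-negative library 2. The member chr7:35591924-35592156 had 44 tags in each GFP-positive library, against 10 tags in GFP-negative library 2. Both sat at the upper limit for a weak GFP-negative call. Another member, chr2:19398653-19398820, had 29 and 39 tags, against 8 tags in GFP-negative library 1. The other two lay on the same chromosome, at chr9:41050785-41050986 with 29 and 40 tags against 8 tags in GFP-negative library 1, and at chr9:41087659-41087970 with 29 and 39 tags against 10 tags in the same GFP-negative library.

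The locus of cldne puts such a region beside known elements. Claudins are membrane proteins of tight junctions, and cldne encodes a claudin that is expressed in zebrafish periderm. In the RefSeq annotation of a later build (GRCz12tu, used for the order of genes only) cldnj precedes cldne, and cldnf and cldna follow it, so the gene sits in a row of claudin genes. The study placed 5 elements around its transcription start site, named +6 kb, +3 kb, TSS, -8 kb and -11 kb. It built GFP reporters from the 5 elements and reported mosaic GFP in the periderm of injected embryos. Of the 5 elements only the -11 kb element held a member, at chr15:2643666-2644127 (462 bp).

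At the -11 kb element the summit had 22 tags in GFP-positive library 1, 0.883 scaled tags (interval 0.553 to 1.34), and 40 tags in GFP-positive library 2, 1.36 scaled tags (0.970 to 1.85). In GFP-negative library 1 it had 8 tags, 0.188 scaled tags (0.0814 to 0.371), at percentile 13.0 of that list. In GFP-negative library 2 no peak was called. Both GFP-positive intervals lay above that of GFP-negative library 1, and the ratio was 5.95, which places the element among the 60 members with a ratio of 5 or more. The GFP-negative peak, at chr15:2643790-2643958, was 169 bp wide and its centre lay a mean of 84.8 bp from the centres of the GFP-positive peaks, which were 398 and 273 bp wide. The region also held a second, lower peak of GFP-positive library 2, with 12 tags.

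No GFP-negative peak of either list overlapped the other 4 elements. A narrow peak of GFP-negative library 2 lay just outside the TSS element, at -0.404 kb from its centre. It had 12 tags, above the limit for a weak call. GFP-negative library 1 had a peak of 7 tags at -0.671 kb. The +6 kb element had 24 and 20 tags in GFP-positive libraries 1 and 2, the TSS element 22 and 35 tags, and the -8 kb element 19 and 31 tags. The +3 kb element had 23 and 14 tags, and 14 tags is below the limit of library 2, so it was not a strong GFP-positive region. In GFP-positive library 1 the summit of the -11 kb element was no higher than those of the +6 kb, +3 kb and TSS elements, and in GFP-positive library 2 it was the highest of the 5, with an interval that overlaps those of the +6 kb, TSS and -8 kb elements but not that of the +3 kb element.

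**Figure D2:**
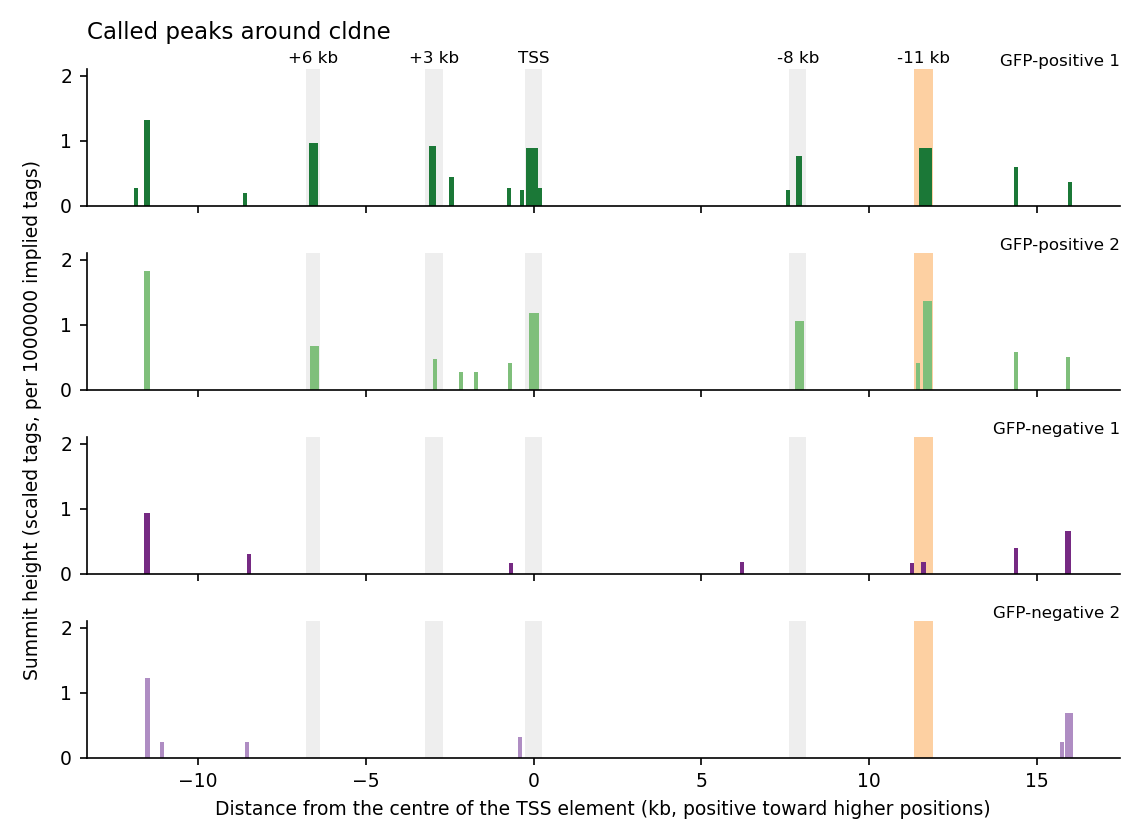
Called peaks of the 4 lists around cldne, by distance from the centre of the TSS element (kb, positive toward higher positions), with summit height in scaled tags (per 1000000 implied tags). Shading marks the 5 elements, with the -11 kb element in orange, which is the only one that a GFP-negative peak overlaps (0.188 scaled tags in list 1). The names of the elements run opposite to this axis, with upstream elements on the right, and the narrowest bars are drawn wider than their peaks to be visible.

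Other GFP-negative peaks near cldne give the scale of the call at the -11 kb element, and some were far higher. Around 15.9 kb from the centre of the TSS element, GFP-negative libraries 1 and 2 had 28 and 26 tags. GFP-positive libraries 1 and 2 had 9 and 15 tags there. In scaled tags the GFP-negative libraries had 0.660 and 0.692 at this site, against 0.361 and 0.509 in the GFP-positive libraries. Around -11.5 kb the GFP-negative libraries had 40 and 46 tags, against 33 and 54 in the GFP-positive libraries. Scaled to library size, both GFP-positive summits around -11.5 kb were the higher ones, with 1.32 and 1.83 scaled tags. GFP-negative libraries 1 and 2 had 0.942 and 1.224 scaled tags around -11.5 kb. A narrow peak of GFP-negative library 1 with 7 tags lay 11.3 kb from the centre of the TSS element, just outside the GFP-positive peaks of the member. A region 14.4 kb from that centre had 15 and 17 tags in GFP-positive libraries 1 and 2, against 17 tags in GFP-negative library 1 and no peak in GFP-negative library 2. In scaled tags this was 0.602 and 0.577 in the GFP-positive libraries, against 0.401 in the GFP-negative one, so this neighbour was also called in 1 GFP-negative list alone but at more than the height allowed for a member.

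In most members the weak GFP-negative peak overlapped both GFP-positive peaks and was narrower than either. Members had a median width of 183 bp (68 to 679 bp). The strongest GFP-positive peak was a median of 156 bp wide in library 1 and 124 bp in library 2, against 74 bp for the GFP-negative peak, and 218 of the GFP-negative peaks had the smallest width of 53 bp. The GFP-negative peak was narrower than both GFP-positive peaks in 597 members and wider than both in 65. The rule set the GFP-negative peak at a lower height, and the part of height in its width was not tested. With the groups of the rule exchanged, the weak GFP-positive peaks had median widths of 76 bp in library 1 and 65 bp in library 2. The strong peaks of GFP-negative libraries 1 and 2 there had medians of 150 and 128 bp. It overlapped the strongest peak of both GFP-positive lists in 730 members (93.6%), that of 1 list in 49 and that of neither in 1. The merging of overlapping peaks requires some overlap within a region, so a high share follows in part from how regions were made, and 747 members had just 1 peak in each of the 3 lists.

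The centre of the GFP-negative peak fell inside both GFP-positive peaks in 630 members (80.8%), and in 277 the whole GFP-negative peak did. Its centre lay a median of 27.2 bp from the centres of the GFP-positive peaks, while the centres of the 2 GFP-positive peaks lay a median of 16.0 bp from each other. The mean distance from the GFP-negative centre to the 2 GFP-positive centres exceeded the distance between those 2 in 519 of 780 members (66.5%). In the 1528 strong GFP-positive regions whose single GFP-negative peak was at percentile 40 or more, the same medians were 18 bp and 13.5 bp. The mean distance was the larger one in 55.2% of them, and the GFP-negative peak was a median of 97 bp wide. In both GFP-negative libraries those peaks had a median of 14 tags, against 9 for the members, and the part of height and width in the distances was not tested.

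**Figure D3:**
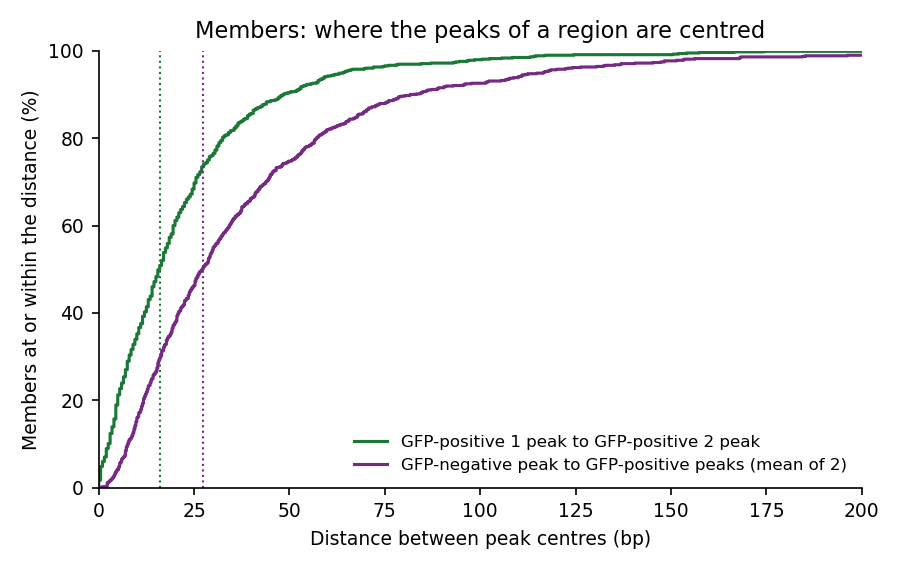
Share of the 780 members (vertical axis, %) whose peak centres lie within a given distance (horizontal axis, bp, shown to 200 bp). The green line compares the 2 GFP-positive peaks (median 16.0 bp) and the purple line the GFP-negative peak with the GFP-positive peaks (median 27.2 bp), and dotted lines mark the medians.

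The weak call came more often from GFP-negative library 1, with 498 members (63.8%), than from GFP-negative library 2, with 282. That library had the longer list, 455867 peaks against 333588 in GFP-negative library 2, and held 57.7% of all GFP-negative peaks and 60.2% of those under percentile 40. Among the 1528 regions with a single GFP-negative peak at percentile 40 or more, 67.3% of the peaks were in library 1. The share also depends on how tied values are ranked, since whole steps of tags pass or fail together. It was 52.0% when the percentile was the share of peaks at or below a value and 56.3% when it was the share strictly below.

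Members were alike in GFP-positive height whichever GFP-negative library held the peak, with median summits of 18 tags in each GFP-positive library in both subsets. The ratio had a median of 3.17 with the peak in GFP-negative library 1 and 2.83 with the peak in library 2, where 1 tag is worth more scaled tags. The GFP-negative peak was a median of 81 bp wide in library 1 and 65 bp in library 2.

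A region without a call is not one without signal, since at least 6 tags were needed for a peak. In the GFP-negative library that had no peak in the member, 49 members had a peak within 100 bp of the region, 221 (28.3%) within 500 bp and 474 (60.8%) within 2000 bp. The share within 500 bp was 36.2% of 282 where the list without the call was the longer one (library 1) and 23.9% of 498 where it was library 2. For the 1355 strong GFP-positive regions with no GFP-negative peak at all, it was 26.0% for GFP-negative library 1 and 20.1% for GFP-negative library 2. For both libraries the share was higher around the members, and no test was made across regions of the same lists.

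The members are 1 of 5 classes of strong GFP-positive regions. Beside the 780 members, 1355 had no GFP-negative peak, 1528 had a single GFP-negative peak at percentile 40 or more, 288 had peaks in both GFP-negative lists that were both under percentile 40, and 61555 had peaks in both with 1 or both at percentile 40 or more. Among regions with every GFP-negative peak under percentile 40, 780 were called in 1 GFP-negative list and 288 in both. The class limits set these counts, since both peaks of the 288 had to be under the limit. In GFP-positive height the members stood near the small classes, with median summits of 18 and 18 tags against 17 and 19 tags for regions with no GFP-negative peak, and below the 61555 regions with both GFP-negative peaks, 1 or both at percentile 40 or more (29 and 26 tags).

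The share of members fell with the strength of the GFP-positive peaks. Members made up 2.96% of the 13665 strong regions whose lower GFP-positive percentile was between 60 and 70, 1.54% of 16706 between 70 and 80, 0.608% of 17767 between 80 and 90, and 0.0633% of 17368 at 90 or more. Regions with no GFP-negative peak followed the same course, with 4.75%, 2.94%, 1.18% and 0.0345%. At percentile 90 or more, 99.8% of the strong GFP-positive regions had peaks in both GFP-negative lists with at least 1 at percentile 40 or more. Of the 780 members, 404 were in the lowest of these bands, just above the limit of the rule, followed by 257, 108 and 11 in the bands above it.

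**Figure D4:**
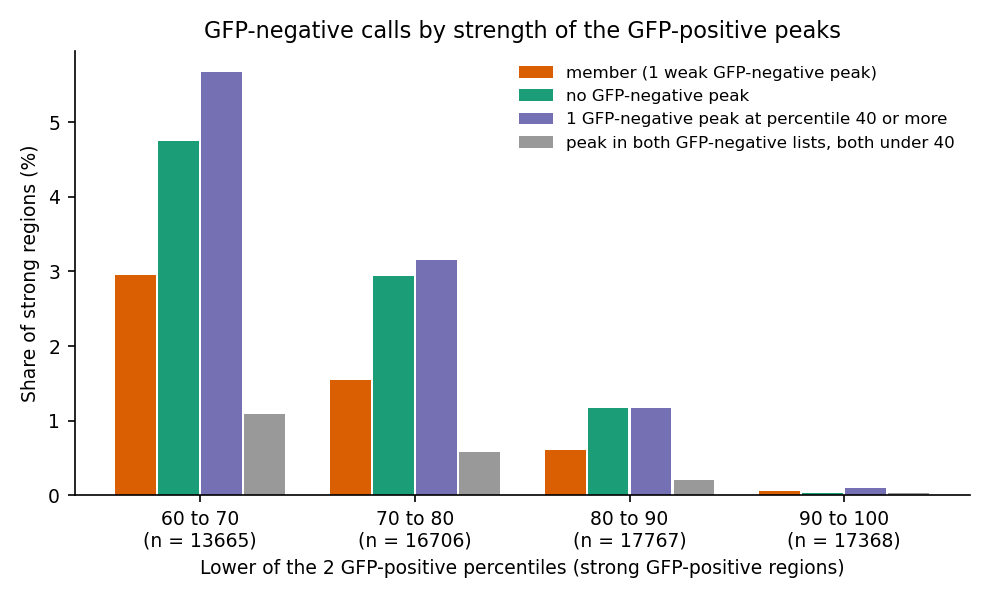
Share of strong GFP-positive regions (vertical axis, %) in 4 classes of GFP-negative call, by the lower of the 2 GFP-positive percentiles (horizontal axis, with the number of regions in each band). Members (orange) make up 2.96% of the regions between percentiles 60 and 70 and 0.0633% of those at 90 or more. Regions with peaks in both GFP-negative lists, 1 or both at 40 or more, are not drawn.

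The mirrored rule, with the groups exchanged, gave 4047 regions that were strong in both GFP-negative lists and weak in exactly 1 GFP-positive list. This was 4.00% of the 101152 strong GFP-negative regions, against 1.19% of the strong GFP-positive regions for the members. The GFP-positive lists were shorter (336052 and 190059 peaks, against 455867 and 333588 in the GFP-negative lists), and with equal numbers of the strongest peaks taken from each list the members were 1123 and the mirrored regions 1496. With lists of the same length the 2 counts lay closer together. That cut also dropped the faintest peaks of the longer lists, so the percentile limits stood at other heights. The median ratio of the members was 2.31 there, against 3.09 with the full lists. The part of list length in the 2 counts was not tested.

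Neighbours of 3 kinds were counted around the members, and the kinds differ in number. There were 10906 regions with peaks in both GFP-positive lists and no GFP-negative peak, 39772 with peaks in both GFP-negative lists and no GFP-positive peak, and 15877 at percentile 90 or more in all 4 lists, so shares are compared within a kind and not between kinds. Within 10 kb, 27.8% of members had a region of the first kind, 40.9% one of the second and 24.9% one of the third. The nearest of the other classes on each kind was that of the 1528 regions with a single GFP-negative peak at percentile 40 or more, with 25.2%, 39.4% and 25.4%. For regions with no GFP-negative peak the same shares were 33.7%, 36.4% and 24.2%, and for the 288 with both GFP-negative peaks under percentile 40 they were 21.9%, 47.2% and 26.0%. For the 61555 regions with both GFP-negative peaks, 1 or both at percentile 40 or more, they were 17.2%, 49.8% and 36.0%. Regions with no GFP-negative peak all belong to the first kind, and the third kind lies within the 61555. These classes could thus count their own regions as neighbours, while members belong to no kind. The neighbours' values were not used to choose the members, but all shares rest on the same 4 lists, so they are given as a description.

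**Figure D5:**
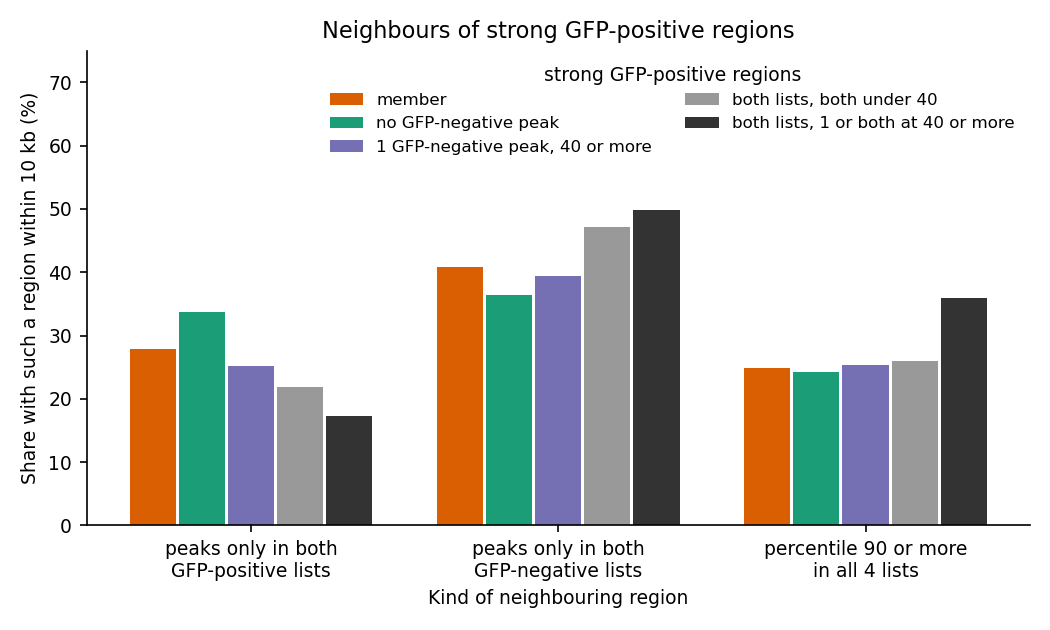
Share of strong GFP-positive regions (vertical axis, %) with a neighbour of 3 kinds within 10 kb, for the 5 classes of GFP-negative call. Members (orange) have a neighbour called in both GFP-positive lists alone in 27.8%, against 33.7% for regions with no GFP-negative peak, 25.2% for regions with a single GFP-negative peak at percentile 40 or more and 17.2% for regions with both GFP-negative peaks, 1 or both at 40 or more. Regions with no GFP-negative peak are themselves of this kind and can count each other.

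Members were scattered over the genome. The 25 chromosomes held 20 (chromosome 25) to 48 (chromosome 3) members each, or 0.450 per Mb on chromosome 6 to 0.759 per Mb on chromosome 3, with 0.575 per Mb overall. As a share of the strong GFP-positive regions of a chromosome, members ranged from 0.917% on chromosome 21 to 1.43% on chromosome 3. The median distance from a member to the closest other member, on either side, was 597031 bp.

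Only 22 members (2.82%) had another member within 10 kb, while 122 of the 1355 regions with no GFP-negative peak, a more numerous class, had another of their own class that near. Without GFP-positive library 2 and its condition the rule gave many more regions, and the share of members with another within 10 kb was 9.90%. More regions also passed without GFP-negative library 1 or 2 and its condition, and the share was 6.25% and 4.72%. The 22 members formed 10 groups of at most 3. On chromosome 12, 3 members lay in the tile chr12:3900001-4000000, which had the most members of any 100 kb tile and the highest summed GFP-positive percentiles among the 4 tiles with 3. They were chr12:3976443-3976744 with 31 and 30 tags in GFP-positive libraries 1 and 2, chr12:3980146-3980430 with 21 and 17 tags, and chr12:3980727-3980947 with 37 and 36 tags, against 9 tags in GFP-negative library 1 for each. The same GFP-negative library held all 3 weak peaks, at the same height.

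Closer pairs did not always share the library of the weak call. On chromosome 13 the member chr13:8204813-8204991 lay 95 bp from chr13:8204558-8204717, which had 18 and 27 tags in the GFP-positive libraries, against 10 tags in GFP-negative library 1, while the weak peak of its neighbour was in GFP-negative library 2. On chromosome 12 a pair 105 bp apart, chr12:9524612-9524787 and chr12:9524893-9525122, was split in the same way, with 29 and 20 tags against 10 tags in GFP-negative library 2, and 23 and 19 tags against 8 tags in GFP-negative library 1. On chromosome 1 both members of a pair 170 bp apart, chr1:18144600-18144814 and chr1:18144985-18145270, had their weak peak in GFP-negative library 1, with 8 and 10 tags. Positions are those of the danRer7 (Zv9) build that the study's methods name. No genome or annotation of that build was used here, so no gene, exon or sequence is given for the members.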

How the data were processed

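Peak lists were used from 4 ATAC-seq libraries, 2 GFP-positive and 2 GFP-negative, grouped and numbered by the labels. The authors trimmed reads with Trimmomatic, mapped them with Bowtie2 to danRer7 (the submitters' processing notes list danRer10), removed duplicates with SAMtools, kept fragments under 100 bp and called peaks in each library with MACS2 2.1.1, with a genome size of 1400000000 bp, a tag extension of 54 bp and no local background. Each deposited list gives positions and an unnamed value per peak, which was read as a ratio, the fold enrichment over the constant background of that library. The authors' test on reads, with DiffBind, could not be run on peak lists.

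Percentiles used the mean rank of tied values, and summit tags were the fold divided by the step of the list, minus 1. The rule was checked on simulated lists whose planted regions lay away from its percentile limits. The step was checked on simulated whole multiples. Ties at the limits were not part of these checks. Regions named are the cldne elements, the 10 members with the highest lower GFP-positive percentile, the 5 with the highest ratio and those of the fullest 100 kb tile. Pairs within 200 bp, the neighbour of the cldne member and the other GFP-negative peaks named near cldne were chosen after their values were seen. Regions at a limit tie, so they are given by step of tags rather than 3 at a time. The members, lists and rules were chosen with earlier results of these data known. The labels give no link between replicate numbers and incrosses. Alternatives are under the closing section. Scripts ran under Python 3.11.15 (pandas 2.3.3, numpy 2.4.6, scipy 1.17.1), with plots by matplotlib 3.10.9.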

Additional observations from a re-analysis of the deposited data

How the results depend on the processing

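The limits of the rule set how many regions it finds. Strong regions were counted anew under each setting, so the shares given here are of the strong regions of that setting. With 780 members as reported, a GFP-positive limit of percentile 50 gave 1433 members (1.79% of the strong GFP-positive regions) and a limit of 70 gave 376 (0.725%), and a GFP-negative limit of 30 gave 470 (0.717%), of which 1.06% had another member within 10 kb, while a limit of 50 gave 1.55% of the strong regions. Equal numbers of the strongest peaks per list gave members in 2.02% of the strong regions, with 52.6% of the weak peaks in GFP-negative replicate 1 and 97.1% overlapping both GFP-positive peaks. The ranking of ties moved the share in GFP-negative replicate 1 to 56.3% (share strictly below) and 52.0% (share at or below, chosen after seeing the data, with members in 0.957% of the strong regions), and 472 of the 780 members were found under all 3 rankings. A member was near another in 1.28% at 2 kb and in 10.3% at 50 kb. The GFP-negative peak overlapped both GFP-positive peaks in 96.3% when regions needed an overlap of 50% of the shorter peak, and its centre lay inside both in 80.8%.

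Without 1 library at a time, and so without its condition, the rule gave 1349 to 5041 members, the highest without GFP-positive replicate 2. These were 1.84% to 4.17% of the strong regions of the same setting, with another member within 10 kb in 3.11% to 9.90%. The GFP-negative peak overlapped both GFP-positive peaks in 95.2% without GFP-negative replicate 1 and 95.6% without GFP-negative replicate 2. Without a GFP-positive replicate only 1 GFP-positive list was left to overlap, and the share was 100%, which the merging largely sets. The share in GFP-negative replicate 1 was 63.0% to 64.7% without a GFP-positive library and has no value without a GFP-negative one. With the replicate block, in which the GFP-negative peak is set against the GFP-positive library of the same number, the median ratio was 3.03, against 3.09 as reported. The numbers are not tied to incrosses by the labels. Median region width moved by more than 22.6 bp only without a GFP-positive library (129 to 135 bp). That limit is the spread of the median peak widths of the 2 GFP-positive libraries, so it is of single peaks and not of regions. The mirrored regions, 4047 as reported, numbered 1496 to 14987. The median centre distance lay between 22.5 and 29.6 bp in the alternatives. It moved by more than 0.177 bp in 13 of 13. That narrow limit is the spread of 2 medians over the same members, 26.75 bp to GFP-positive library 1 and 26.5 bp to library 2. It does not measure variation between samples. The median ratio lay between 2.31 and 3.63. It moved by more than 0.221, the spread of the 2 medians read from each GFP-positive library alone, in 7 of 14.

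Single members rest on few tags. The weak peak of a member has 6 to 10 tags, a range set by the rule and by the faintest call. In 588 of 780 members the counting interval of at least 1 GFP-positive summit overlaps that of the GFP-negative summit. The part of sequencing depth was not tested.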
